A study of Mus musculus with 12 samples.

Results

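The comparison described here set adipocytes grown after 4-hydroxytamoxifen treatment (the group 4OHT) against adipocytes grown after the ethanol vehicle (the group EtOH), both without rosiglitazone. It used 6 of the study's 12 Affymetrix expression arrays, 3 per group, chosen by their titles. Of 41345 probe sets, the 23521 that mapped to exactly 1 gene symbol were kept, and the brightest one per gene by its mean over the 12 arrays gave 22180 genes. All 4 groups of the study share the genotype R26Cre/Prdm16floxEx9, a Cre recombinase at the broadly active Rosa26 locus together with a floxed exon of Prdm16. All were precursor cells from inguinal fat, grown in culture and treated for 3 days with 1 uM 4-hydroxytamoxifen or with ethanol while growing. They were then differentiated in a medium with isobutylmethylxanthine, indomethacin, dexamethasone, insulin and T3. The other 6 arrays, EtOH_Rosi and 4OHT_Rosi, also received 1 uM rosiglitazone, a drug that activates PPARgamma. 4-hydroxytamoxifen activates inducible forms of Cre and also binds the estrogen receptor. Every group carries the same genotype, so the action of the ligand and the loss of the floxed exon cannot be told apart in this comparison.

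Values are the authors' log2 array values. A difference is 4OHT minus EtOH on that scale with limma's standard error, and a gene is said to have risen or fallen where limma's Benjamini-Hochberg adjusted p over all 22180 genes was below 0.05. The number of arrays limits the precision. The labels do not state that the replicates came from separate cultures, so p-values measure only how far these arrays differ, and that spread may be technical. The array medians over all probe sets lay between 5.97 and 6.05. The median level of the genes was 6.60.

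The cells carried adipocyte markers. The lipid carrier gene Fabp4 lay between 13.52 and 13.56 in the EtOH arrays and between 13.52 and 13.55 in the 4OHT arrays. The adiponectin gene Adipoq lay between 10.50 and 10.67 and between 10.58 and 10.65. Markers of other cells were present as well: Lyz2 and Mpeg1 of macrophages lay at 11.88 to 11.95 and 7.98 to 8.44 in EtOH, and Pecam1 of endothelial cells at 9.72 to 9.97. T cell markers were dim, with Cd3e between 5.21 and 5.44. The protocol text common to all samples mentions rosiglitazone, whereas the titles and treatment labels name it for 6 arrays only. Ucp1 lay between 5.59 and 5.73 in EtOH and between 7.51 and 8.20 in EtOH_Rosi, and Sptlc3 between 5.17 and 5.71 and between 10.87 and 11.04, so the arrays differed as the titles say.

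Prdm16, the targeted gene, encodes a nuclear regulator that drives brown and beige fat genes. Its level was 6.55, 6.49 and 6.84 in the EtOH arrays and 6.33, 6.45 and 6.59 in the 4OHT arrays. The groups overlapped, and the difference of -0.17 ± 0.10 did not pass (limma adjusted p = 0.455). The sources do not place the probe set against the deleted exon, so this level does not check the excision.

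Type I interferons are secreted antiviral signals. They bind a receptor of 2 chains, Ifnar1 and Ifnar2, whose kinases Jak1 and Tyk2 activate transducers such as Stat2, which joins Irf9 to bind the interferon-stimulated response element in the promoters of target genes. The target genes restrict viral replication, display antigen and, through Irf7, amplify interferon production, while Usp18 and the Socs genes damp the signal. Of the 54 genes that rose at least 2-fold, 46 belonged to the lists of interferon and immune genes used here. Those lists hold 291 measured genes in all. They were written with earlier results of these data known, so this overlap is a description and no independent support. The lists also reach beyond interferon targets, and the 46 include the acute phase genes Saa2 and Orm2.

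In all, 472 genes rose (2.13% of those tested) and 396 fell (1.79%). At an unadjusted p below 0.05, 1864 were higher and 1686 lower. The median size of the rises was 0.41, and 6 exceeded 4-fold. The falls had a median size of 0.415, and 16 reached 2-fold and 2 exceeded 4-fold. The 3 arrays of one group lay wholly above the 3 of the other for every called gene, as they did for 11.2% of all genes in the direction of 4OHT and for 11.7% in the direction of EtOH. The counts were sensitive to single arrays: the rises fell to between 276 and 297 without EtOH 2, EtOH 3, 4OHT 1 or 4OHT 2, and the falls to between 189 and 254 without any 1 of the 6 arrays compared. The lists below were described by their counts and medians, beside a median of 0.00 over all genes.

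The promoters of the genes that rose most were examined for the core of the response element, the letters GAAANNGAAA on either strand, where N is any base, with overlapping matches counted. RefSeq's promoter windows on GRCm38.p6 run from 250 bases before to 50 bases after the start site and were matched for 16990 of the 22180 genes, of which 657 (3.87%) held the core. The 250 bases before the start site are shown for 6 of the rises described below that held it, largest fold first, and for Irf1, whose small rise and window without the core serve for comparison. They are written 5′ to 3′ along the gene's strand, with the core, or the run made by overlapping cores, in capitals.
Apol9b, chr15:77728822-77729071, plus strand, an apolipoprotein L family gene: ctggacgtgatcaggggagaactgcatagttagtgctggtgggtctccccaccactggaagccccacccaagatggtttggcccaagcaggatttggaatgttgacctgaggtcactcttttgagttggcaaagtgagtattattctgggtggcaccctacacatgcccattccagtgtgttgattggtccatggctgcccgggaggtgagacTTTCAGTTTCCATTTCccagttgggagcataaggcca
Ifit1, chr19:34640639-34640888, plus strand, an antiviral RNA-binding protein: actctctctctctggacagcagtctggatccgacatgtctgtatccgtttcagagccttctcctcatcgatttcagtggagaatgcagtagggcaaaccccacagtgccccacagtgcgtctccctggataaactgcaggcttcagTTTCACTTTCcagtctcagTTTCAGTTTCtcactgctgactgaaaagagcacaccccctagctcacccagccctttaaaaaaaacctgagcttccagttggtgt
Oas1g, chr5:120887614-120887863, minus strand, an oligoadenylate synthetase: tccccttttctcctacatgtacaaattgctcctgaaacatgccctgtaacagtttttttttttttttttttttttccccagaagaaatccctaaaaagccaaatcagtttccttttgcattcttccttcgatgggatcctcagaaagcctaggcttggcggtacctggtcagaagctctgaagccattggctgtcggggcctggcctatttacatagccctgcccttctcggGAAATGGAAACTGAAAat
Rsad2, chr12:26456453-26456702, minus strand, the antiviral enzyme viperin: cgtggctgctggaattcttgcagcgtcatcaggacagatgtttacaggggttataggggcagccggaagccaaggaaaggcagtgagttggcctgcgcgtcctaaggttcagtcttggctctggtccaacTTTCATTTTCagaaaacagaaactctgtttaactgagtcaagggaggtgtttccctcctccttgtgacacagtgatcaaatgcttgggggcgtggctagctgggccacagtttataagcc
Gbp3, chr3:142559794-142560043, plus strand, a guanylate-binding GTPase: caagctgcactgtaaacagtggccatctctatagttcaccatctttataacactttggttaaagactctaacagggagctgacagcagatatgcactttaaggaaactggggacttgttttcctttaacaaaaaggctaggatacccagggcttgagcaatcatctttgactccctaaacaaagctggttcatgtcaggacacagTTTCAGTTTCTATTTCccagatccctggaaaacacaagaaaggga
Isg15, chr4:156200819-156201068, minus strand, a ubiquitin-like modifier: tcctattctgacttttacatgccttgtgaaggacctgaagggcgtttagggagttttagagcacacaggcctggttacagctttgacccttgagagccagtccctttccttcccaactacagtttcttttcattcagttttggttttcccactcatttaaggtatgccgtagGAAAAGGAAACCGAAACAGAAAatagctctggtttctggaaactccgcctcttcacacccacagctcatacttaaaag
Irf1, chr11:53769764-53770013, plus strand, an interferon regulatory factor: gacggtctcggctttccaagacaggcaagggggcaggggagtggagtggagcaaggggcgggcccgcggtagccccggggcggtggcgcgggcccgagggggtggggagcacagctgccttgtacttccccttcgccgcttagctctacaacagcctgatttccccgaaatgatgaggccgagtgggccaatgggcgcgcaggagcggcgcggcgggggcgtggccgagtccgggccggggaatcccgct

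In Oas1g the first core began 18 bases before the start site and in Apol9b 37, whereas in Isg15 a run of 3 overlapping cores began 78 bases before it and in Rsad2 a single core 120. Ifit1 had 2 separate cores, which began 104 and 85 bases before the start. Apol9b, Gbp3 and Irf1 each have a further start site in RefSeq, and the second windows of Gbp3 and Irf1 did not hold the core. Among the genes that rose, 44 of 367 with a promoter (12%) held it, and among those that fell, 15 of 302 (4.97%). The share was 22 of 39 (56.4%) for rises of at least 2-fold and 22 of 328 (6.71%) for smaller ones. With array weights 6.97% of the rises held it, beside 3.87% over all genes. Rises outside the interferon and immune lists held it in 9 of 286 (3.15%), below the share over all genes. The windows of Irf7, Cmpk2, Cxcl9, Herc6, Tap1 and Irf9, which rose, did not hold these letters. B2m had a core 139 bases before its start and differed by 0.07 ± 0.05 (limma adjusted p = 0.564), at a level of 13.59 to 13.63 in EtOH, close to the highest value on the arrays. A match is a description of letters and not of binding.

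**Figure D1:**
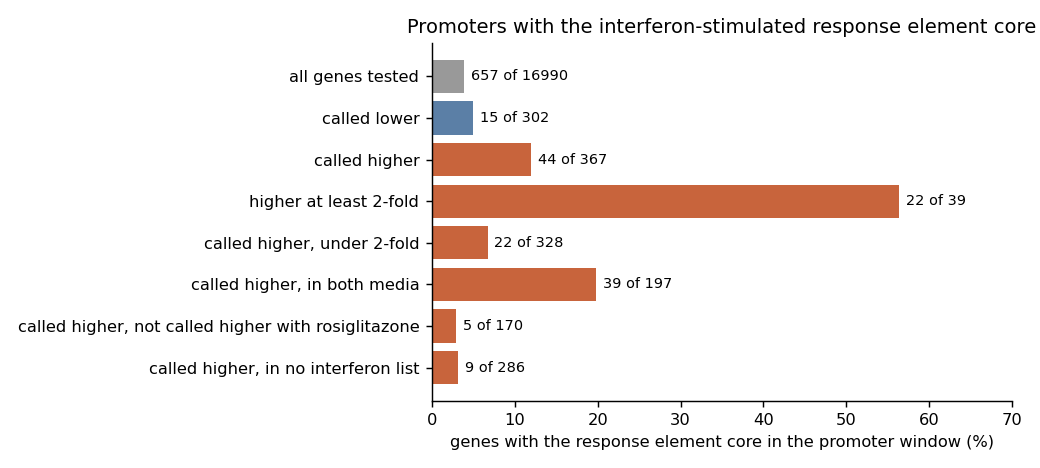
Share of genes, in percent of those with a promoter window, whose window holds the response element core, for all genes tested and for groups of called genes, with the counts beside each bar. The bar for rises of at least 2-fold, 22 of 39, is the longest, and the bars for falls and for rises outside the interferon lists lie near that of all genes.

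The interferon genes themselves did not pass. Of the 19 measured genes for type I, II and III interferons 0 rose and 0 fell, with differences from -0.26 to 0.10. Ifnb1, the interferon beta gene, lay at 4.2, 4.38 and 4.25 in EtOH and at 4.35, 4.16 and 4.24 in 4OHT, close to the array background. Probe sets annotated as background had medians of 4.35 to 4.57 per array. A fall or a small rise of Ifnb1 could not be seen at this level. In none of the 4OHT arrays did it lie above those medians.

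The sensors that detect foreign or misplaced nucleic acid were higher. Of 27 sensors and adaptors, 12 rose and 0 fell, with a median of 0.30. Ifih1, which encodes the double-stranded RNA sensor MDA5, lay at 9.08, 9.41 and 9.03 in EtOH and at 10.27, 10.29 and 10.40 in 4OHT. All 3 treated arrays were above the ethanol arrays, and the rise was 1.15 ± 0.09 (limma adjusted p = 2.27e-05). Dhx58, a regulator of that sensor, rose by 1.09 ± 0.10, Ddx58, the sensor RIG-I, by 0.79 ± 0.10, and Ddx60 by 1.30 ± 0.11. Zbp1, a sensor of left-handed nucleic acid that can trigger cell death, lay at 9.20, 9.41 and 9.08 in EtOH and at 10.43, 10.55 and 10.63 in 4OHT. It rose by 1.31 ± 0.17 (limma adjusted p = 0.000564). Eif2ak2, the kinase PKR that stops translation on double-stranded RNA, rose by 0.78 ± 0.07, its editing counterpart Adar by 0.53 ± 0.09, and Tlr3, the endosomal receptor, by 0.52 ± 0.08. The DNA-binding Ifi209 and Ifi213 rose by 1.22 ± 0.19 and 0.99 ± 0.08. The adaptors did not pass: Mavs differed by 0.18, Myd88 by 0.07 and Sting1 by -0.29, and the kinase Tbk1 by 0.17. The DNA sensor Cgas differed by -0.02.

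Signalling genes downstream of the receptor were mostly near 0. Of the 21 receptor and JAK-STAT genes 2 rose and 0 fell, with a median of -0.01. The receptor genes Ifnar1 (-0.07), Ifnar2 (0.04), Ifngr1 (0.06) and Ifngr2 (-0.04) and the kinases Jak1 (-0.05) and Tyk2 (-0.05) did not pass. Stat2 was the transducer that rose. It lay at 9.58, 9.96 and 9.64 in EtOH and at 10.69, 10.60 and 10.71 in 4OHT, a difference of 0.94 ± 0.10 (limma adjusted p = 0.000126). Usp18, which removes Isg15 and restrains the receptor, lay at 9.41, 10.16 and 9.15 in EtOH and at 11.37, 11.28 and 11.33 in 4OHT. EtOH 2 was the highest ethanol array there, but still more than 1 unit below every treated array, and the rise was 1.75 ± 0.20 (limma adjusted p = 0.00024). Socs1 differed by -0.01 and Socs3 by -0.27 ± 0.08 (limma adjusted p = 0.0799).

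Among 10 interferon regulatory factor genes 3 rose and 0 fell. Irf7, the factor that amplifies the type I response, lay at 8.21, 8.66 and 8.17 in EtOH and at 10.57, 10.79 and 10.60 in 4OHT. The groups were nearly 2 units apart at their closest, and the 4.95-fold rise (2.31 ± 0.14, limma adjusted p = 4.01e-06) was the largest of all genes tested. Irf9 rose by 0.47 ± 0.10 (limma adjusted p = 0.0166) and Irf1 by 0.29 ± 0.07 (limma adjusted p = 0.0434). Those calls depended on single arrays: Irf9 was lost without EtOH 1, EtOH 3 or any 4OHT array and Irf1 without any 1 of the 6 arrays compared, so that 1 of the 3 calls was left without EtOH 1, EtOH 3 or any 4OHT array. The call of Irf1 was also lost without EtOH_Rosi 2 or EtOH_Rosi 3. The factor Irf3, which acts at the start of the response, differed by -0.07.

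The highest list medians were those of the Isg15 list (1.23), described below, and of the antiviral effectors. Of 17 Ifit and oligoadenylate synthetase genes 10 rose and 0 fell, with a median of 0.91. Ifit1 lay at 8.66, 9.61 and 8.19 in EtOH and at 11.04, 10.91 and 11.16 in 4OHT. The ethanol arrays spread over more than 1 unit, with EtOH 2 on top, and the difference was 2.22 ± 0.29 (limma adjusted p = 0.000617). Oas1g lay at 7.26, 7.93 and 6.84 in EtOH and at 9.31, 9.39 and 9.5 in 4OHT, with the same order of the ethanol arrays and a rise of 2.06 ± 0.25 (limma adjusted p = 0.000449). The synthetases make a short messenger that activates an RNA-degrading enzyme. Oas2, Oasl2, Oasl1, Oas3 and Oas1b rose by 1.61, 1.46, 1.41, 1.32 and 1.15. The other Oas1 copies measured (Oas1c, Oas1d, Oas1e, Oas1f and Oas1h) lay between -0.02 and 0.16 and did not pass. Ifit3 differed by 0.19 and its near copy Ifit3b, a dim gene, rose by 1.17. Near-identical copies can share probe signal, so the values of single members of the Ifit, Oas1, Gbp, Apol9, Phf11 and Trim30 families are uncertain.

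The interferon-inducible GTPases, some of which attack the membranes around intracellular microbes, rose in 16 of 17 cases, with a median of 1.14. The member that did not pass was Gbp6 (0.17). Mx2 lay at 5.78, 6.32 and 5.37 in EtOH and at 7.90, 7.80 and 7.81 in 4OHT, and rose by 2.01 ± 0.21 (limma adjusted p = 0.000125). Gbp3 lay at 6.95, 6.95 and 6.86 in EtOH and at 8.37, 8.58 and 8.54 in 4OHT, a rise of 1.58 ± 0.11 (limma adjusted p = 1.52e-05). Its ethanol arrays were within 0.1 unit of each other. Igtp rose by 1.49, Gbp5 by 1.27, Gbp11 by 1.24, Iigp1 by 1.18, Irgm2 by 1.16 and Irgm1 by 1.13. Mx1 rose by 0.64 ± 0.09 at a dim level of 4.78 to 4.82 in EtOH.

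Isg15 is attached to other proteins by the enzymes Uba7, Ube2l6 and Herc6. Isg15 lay at 6.18, 6.14 and 5.81 in EtOH and at 7.30, 7.26 and 7.27 in 4OHT, and rose by 1.23 ± 0.14 (limma adjusted p = 0.000215). Uba7 rose by 0.70 ± 0.07 and Herc6 by 1.59 ± 0.14, whereas Ube2l6 differed by 0.39 ± 0.11 and did not pass (limma adjusted p = 0.0689). With Usp18, 4 of the 5 genes of this system rose.

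Of 50 other antiviral effectors 33 rose and 0 fell, with a median of 0.53. Apol9b lay at 6.03, 6.46 and 6.22 in EtOH and at 8.27, 8.79 and 8.56 in 4OHT, a rise of 2.30 ± 0.25 (limma adjusted p = 0.000216), and its neighbour Apol9a rose by 1.42 ± 0.13. Cmpk2, a nucleotide kinase that lies beside Rsad2, rose by 1.95 ± 0.23 (limma adjusted p = 0.000382). Rsad2 lay at 7.68, 7.95 and 7.51 in EtOH and at 9.64, 9.19 and 9.74 in 4OHT and rose by 1.81 ± 0.21 (limma adjusted p = 0.000257). Bst2, the tether that holds virus particles at the cell surface, rose by 1.27 ± 0.17, and Xaf1, linked to cell death, by 1.12 ± 0.13. Slfn2, Rtp4, Sp110, Phf11b and Trim30a rose by 0.97, 1.06, 1.10, 1.21 and 1.4. Another Sp110 probe set of nearly the same mean level (8.26 against 8.28) differed by 0.59, and a dim one by 0.03. Trim21, a receptor for antibody inside cells, rose by 0.68 ± 0.09. Of 14 poly-ADP-ribose polymerase genes, 4 rose and 0 fell, namely Parp9 (0.73), Parp12 (0.76), Parp11 (0.83) and Parp14 (0.99), while Parp1, the DNA repair enzyme, differed by 0.19 and did not pass.

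Antigen display showed smaller shifts. Of 23 MHC class I and peptide loading genes 15 rose and 0 fell, with a median of 0.34, and none reached 2-fold. Tap1, a subunit of the peptide transporter, lay at 9.33, 9.41 and 9.20 in EtOH and at 10.08 in each 4OHT array, a rise of 0.77 ± 0.07 (limma adjusted p = 5.07e-05). Its partner Tap2 rose by 0.33 ± 0.05. The immunoproteasome subunits Psmb8, Psmb9 and Psmb10 rose by 0.57, 0.47 and 0.40, though Psmb9 lost its call without EtOH 2, EtOH 3, 4OHT 1 or 4OHT 2 (limma adjusted p up to 0.0904). Nlrc5, the class I transactivator, rose by 0.49 ± 0.07. The classical class I gene H2-K1, which was bright at 12.44 to 12.56 in EtOH, rose by 0.33 ± 0.06, and the non-classical H2-T23 by 0.86 ± 0.08. In the MHC class II list 1 of 6 genes fell and 0 rose. This was H2-Ab1 (-0.45 ± 0.10, limma adjusted p = 0.0277), whose call was lost without any 1 of the 6 arrays compared, leaving a count of 0. The class II transactivator Ciita differed by -0.17.

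**Figure D2:**
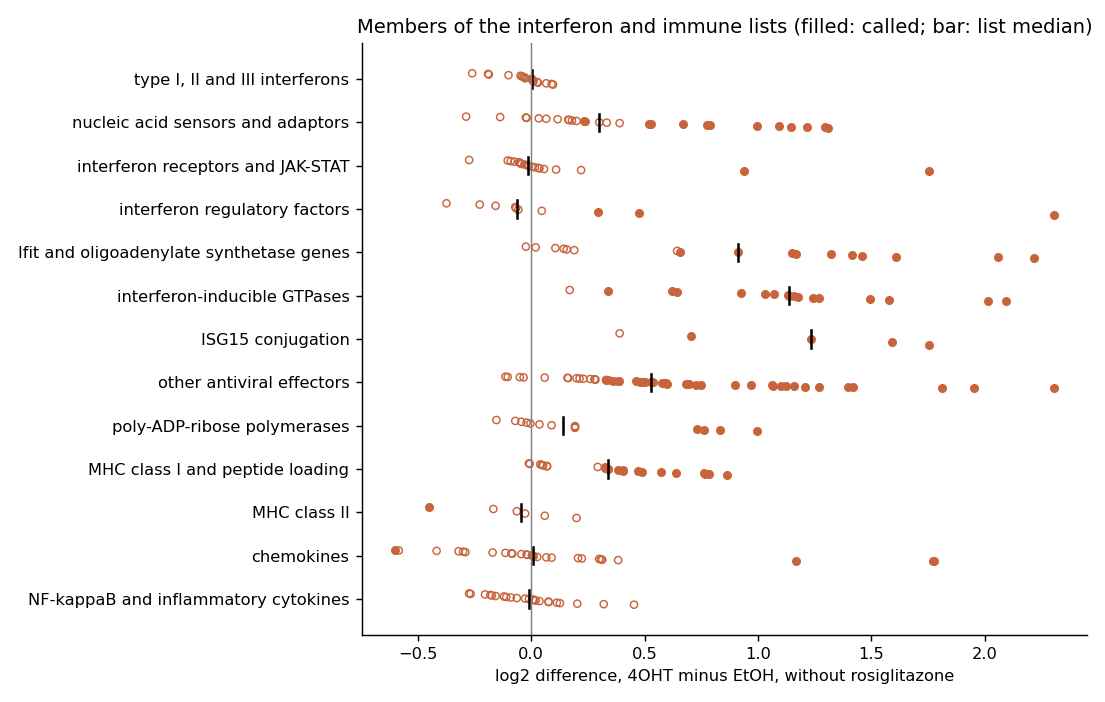
Log2 difference (4OHT minus EtOH, without rosiglitazone) of each measured member of 13 lists of interferon and immune genes, with called members filled and the list median as a bar. The Ifit and synthetase, GTPase and Isg15 lists lie to the right with medians of 0.91, 1.14 and 1.23, whereas the interferons, their receptors and the inflammatory cytokines lie around 0.

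Of 29 chemokine genes 3 rose and 1 fell. Array weights gave 6 rises and 5 falls. The rises were in ligands that draw T cells. Cxcl9 lay at 9.19, 9.21 and 9.19 in EtOH and at 10.83, 11.15 and 10.92 in 4OHT, a rise of 1.77 ± 0.10 (limma adjusted p = 3.36e-06) over ethanol arrays that differed by 0.02. Ccl5 lay at 7.06, 7.11 and 6.93 in EtOH and at 8.59, 8.91 and 8.93 in 4OHT, and rose by 1.78 ± 0.15 (limma adjusted p = 3.08e-05). Cxcl10 rose by 1.17 ± 0.26 (limma adjusted p = 0.0212), with 4OHT 2 at 7.65 below the other treated arrays at 8.24 and 8.43. Its call was lost without EtOH 1, EtOH 3, 4OHT 1 or 4OHT 3. Ccl3, a ligand that draws macrophages, fell by 0.60 ± 0.10 (limma adjusted p = 0.00507). A second chemokine passed in the lower direction without EtOH 3, EtOH_Rosi 1, EtOH_Rosi 2, 4OHT_Rosi 1 or 4OHT_Rosi 3. The monocyte ligand gene Ccl2 differed by -0.02.

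The NF-kappaB and inflammatory cytokine list had 0 rises and 0 falls by limma among 23 genes, with a median of -0.01. Tnf differed by -0.27 ± 0.07 (limma adjusted p = 0.0677), and 1 member passed in the lower direction without EtOH 1 or 4OHT_Rosi 3. Among 18 complement and acute phase genes 4 rose and 1 fell. Saa2, an acute phase apolipoprotein, lay at 6.29, 6.79 and 7.18 in EtOH and at 8.73, 8.0 and 8.51 in 4OHT. Its ethanol arrays were spread over 0.9 unit, and it rose by 1.66 ± 0.29 (limma adjusted p = 0.0052). Orm2 rose by 1.05 ± 0.20, Cfb by 0.45 ± 0.09 and C2 by 0.37 ± 0.09, and Cfp fell by 0.46 ± 0.09. Without 4OHT 2 the calls of Cfb and C2 were lost and the count of rises was 2, and C2 was lost without EtOH 1, EtOH 3, 4OHT 1 or 4OHT 3 too. The fall of Cfp was lost without 4OHT 3. Orm3, a further acute phase gene of the Orm family, lay at 6.25, 5.6 and 5.82 in EtOH and at 7.84, 7.70 and 7.34 in 4OHT and rose by 1.74 ± 0.17 (limma adjusted p = 6.42e-05).

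The ethanol arrays were not equal in the interferon genes. Of the 108 rises in the interferon and immune lists, EtOH 2 had the highest ethanol value in 77, EtOH 1 in 18 and EtOH 3 in 10, with 3 ties. The means of these genes were 8.07, 8.26 and 8.0 in EtOH 1, 2 and 3 and 9.04, 9.07 and 9.06 in the 4OHT arrays. Among the 364 rises outside those lists EtOH 1 was highest in 226 and EtOH 2 in 84. Leaving out any single array kept between 14 and 16 GTPase rises, between 9 and 10 in the Ifit and synthetase list and between 29 and 34 among the other effectors.

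**Figure D3:**
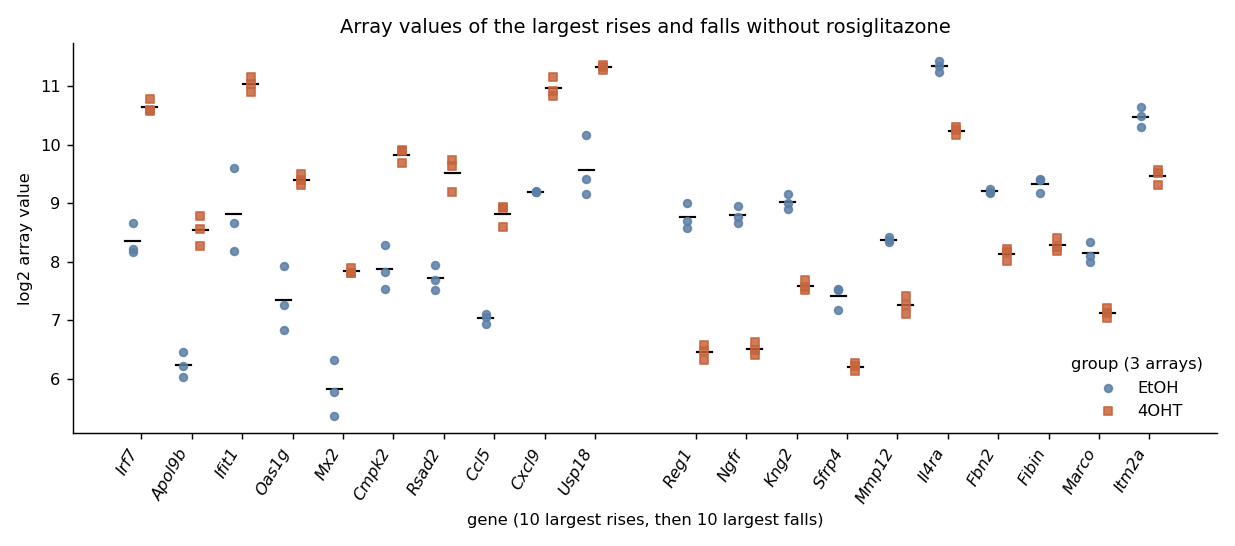
Log2 array values of the 10 largest rises and 10 largest falls among genes that are not dim, predicted or small RNAs, with 1 circle per EtOH array, 1 square per 4OHT array and a bar at the group mean. The groups do not overlap for any gene shown, and the ethanol arrays of Ifit1, Oas1g and Mx2 are more spread than their treated arrays.

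Several of the rises lay side by side on a chromosome. Runs of at least 3 neighbouring measured genes called in the same direction numbered 11, of which 10 rose. On chromosome 3 the run was Gbp5, Gbp7, Gbp3 and Gbp2b (0.92 to 1.58), and on chromosome 5 it was Gbp8, Gbp9, Gbp4 and Gbp10 (0.34 to 1.14). On chromosome 17 the class I loading genes Psmb9, Tap1, Psmb8 and Tap2 formed a run (0.33 to 0.77), on chromosome 14 the 4 Phf11 genes (0.58 to 1.21), and on chromosome 19 Ifit3b, Ifit1bl2 and Ifit1 (0.66 to 2.22). On chromosome 5 Art3, which encodes an ADP-ribosyltransferase family protein and was in no interferon list, lay between Cxcl9 and Cxcl10. It lay at 7.28, 7.30 and 7.21 in EtOH and at 7.76, 7.91 and 7.84 in 4OHT, and rose by 0.57 ± 0.06 (limma adjusted p = 0.000171). The Ly6 genes of chromosome 15, which encode small surface proteins, rose by 0.40 (Ly6c2) to 0.78 (Ly6c1). Gbp4 and Gbp8 of the chromosome 5 run were dim, and with Ly6c2, Ms4a7, Psmb9 and Cxcl10 they lost their calls without 4 or more of the 6 arrays compared, and Ly6i without 4OHT 2. The single run of falls was Slc25a27, Cyp39a1 and Rcan2 on chromosome 17 (-0.33 to -0.40), and all 3 lost their calls without 4OHT 2.

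Genes of cell division were lower after 4-hydroxytamoxifen. Of 39 mitosis genes 31 fell and 0 rose, with a median of -0.46. In 37 of them all treated arrays lay below all ethanol arrays, beside 11.7% over all genes. Mki67, the marker of cycling cells, lay at 9.28, 9.34 and 9.30 in EtOH and at 8.39, 8.61 and 8.54 in 4OHT, and fell by 0.79 ± 0.10 (limma adjusted p = 0.0004). The cyclin gene Ccnb2 lay at 9.44, 9.48 and 9.43 in EtOH and at 8.5, 8.62 and 8.62 in 4OHT, and fell by 0.87 ± 0.14 (limma adjusted p = 0.0036). Among kinesins and spindle proteins Kif23, which acts in the final separation of daughter cells, fell by 0.96 ± 0.13, Nuf2 of the kinetochore by 0.74 ± 0.09 and Prc1 of the central spindle by 0.61 ± 0.11. The mitotic kinase gene Plk1 fell by 0.78 ± 0.09 and Top2a, which untangles chromosomes, by 0.61 ± 0.07. 4OHT 1 was the lowest treated array in Mki67, Ccnb2, Plk1 and Top2a. The count of 31 falls became 20 without EtOH 2 and 16 without 4OHT 1, with no rise. In bulk cultures, fewer dividing cells and less of these RNAs per cell cannot be told apart.

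In the DNA replication list 7 of 41 genes fell and 0 rose, with a median of -0.20, and in 28 all treated arrays lay below all ethanol arrays, beside 11.7% over all genes. Pcna, the sliding clamp of the replication fork, lay at 10.67, 10.58 and 10.53 in EtOH and at 10.26, 10.24 and 10.22 in 4OHT, and fell by 0.35 ± 0.06 (limma adjusted p = 0.0063). Chaf1b, which deposits histones on new DNA, fell by 0.46 ± 0.08 and the helicase subunit Mcm3 by 0.40 ± 0.08. The count of 7 was 4 without EtOH 1, 4OHT 1 or 4OHT 3 and with the replicate number as a block, 12 when only the 2 groups compared were fitted and 17 with limma's array weights, a setting that raised the falls over all genes to 1075. Of 25 replication-dependent histone genes 5 fell and 0 rose. H1f5, a linker histone and a dim gene, lay at 5.59, 5.59 and 5.25 in EtOH and at 4.31, 4.40 and 4.43 in 4OHT, and fell by 1.10 ± 0.12 (limma adjusted p = 0.000249), while the brighter H2ac10 fell by 0.66 ± 0.12 (limma adjusted p = 0.00699). Histone genes are near copies of each other, so single values are uncertain. Together these 3 lists held 43 of the 396 falls, among 105 measured genes. Over all 22180 genes 1.79% fell.

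Of 17 genes for cyclin-dependent kinase inhibitors and D cyclins with their kinases 4 rose and 1 fell. The fall was in Cdkn1b, the inhibitor p27, at 9.12, 9.06 and 9.05 in EtOH and 8.67, 8.72 and 8.61 in 4OHT (-0.41 ± 0.06, limma adjusted p = 0.00233). The rises, in Cdkn1a, Ccnd2, Cdk6 and Cdkn1c, were between 0.24 and 0.30, and 0 calls were left when EtOH 2, EtOH 3 or 4OHT 2 was omitted, 1 when EtOH 1 or 4OHT 3 was, and 2 when 4OHT 1 was. Of 24 p53 target genes 4 rose and 0 fell, with a median of 0.16. In 12 of them all treated arrays lay above all ethanol arrays and in 1 below, beside 11.2% and 11.7% over all genes. Trp53inp1, a stress-induced target, lay at 10.16, 10.15 and 10.10 in EtOH and at 10.57, 10.49 and 10.54 in 4OHT and rose by 0.40 ± 0.07 (limma adjusted p = 0.0066). Leaving out EtOH 1 or 4OHT 3 left 2 of the 4 calls, and leaving out any other of the 6 arrays left 1, as did the replicate block, while an intensity trend gave 7 and array weights 9.

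**Figure D4:**
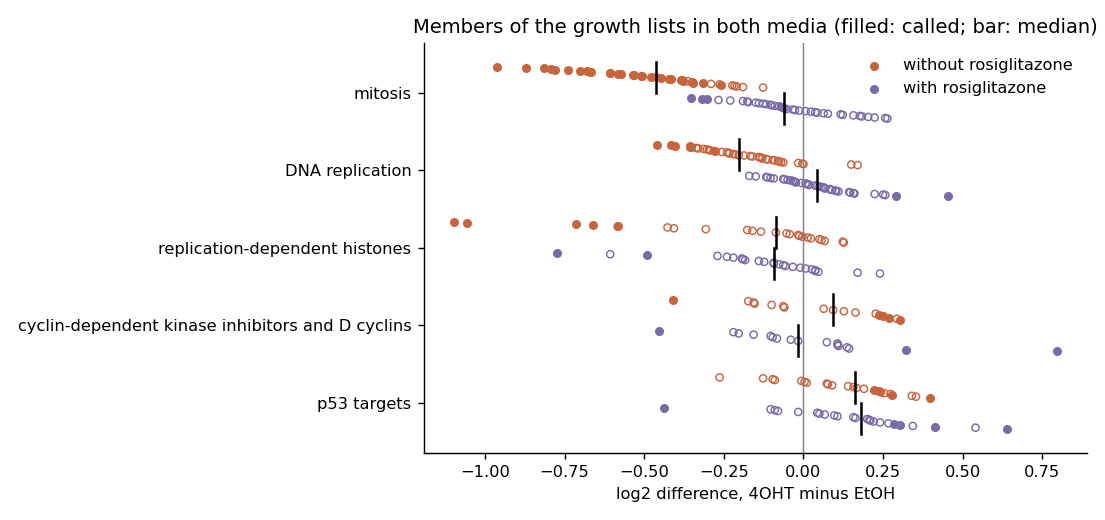
Log2 difference (4OHT minus EtOH) of each measured member of 5 growth lists, without rosiglitazone in orange and with it in purple, with called members filled and medians as bars. The mitosis members lie below 0 without rosiglitazone, at a median of -0.46, and around 0 with it, at a median of -0.06.

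The 2 falls that exceeded 4-fold were in Reg1 and Ngfr. Reg1, a secreted lectin known from regenerating tissue, lay at 8.58, 8.70 and 9.0 in EtOH and at 6.57, 6.32 and 6.47 in 4OHT, and fell by 2.31 ± 0.32 (limma adjusted p = 0.000905). Ngfr, the low-affinity receptor for neurotrophins, lay at 8.76, 8.96 and 8.66 in EtOH and at 6.49, 6.63 and 6.40 in 4OHT, 4.88-fold lower (-2.29 ± 0.16, limma adjusted p = 1.28e-05). Both groups were tight and more than 2 units apart. Ngfr is also a marker of Schwann cells, and of the 11 measured genes of that list it was the 1 that fell, while Sox10 differed by -0.10 and S100b by -0.07 at dim levels.

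Kng2, a kininogen gene, lay at 9.15, 9.01 and 8.90 in EtOH and at 7.69, 7.51 and 7.56 in 4OHT, and fell by 1.43 ± 0.11 (limma adjusted p = 1.78e-05). Il4ra, the receptor chain shared by interleukins 4 and 13, lay at 11.24, 11.43 and 11.35 in EtOH and at 10.16, 10.26 and 10.30 in 4OHT, and fell by 1.10 ± 0.15 (limma adjusted p = 0.000975). Il15ra, the interleukin 15 receptor chain, rose by 0.38 ± 0.06 (limma adjusted p = 0.00342). Gucy1a1, a subunit of the nitric oxide receptor, fell by 1.00 ± 0.08, the cell adhesion gene Cntn1 by 1.01 ± 0.10 and Itm2a, a membrane protein, by 1.02 ± 0.13.

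Among 27 Wnt ligands and modulators 1 fell and 0 rose, with a median of -0.06, and among 28 genes of the TGF-beta, BMP and activin pathways 2 fell and 0 rose, with a median of -0.02. Over all genes 1.79% fell. Sfrp4, a Wnt antagonist, lay at 7.17, 7.54 and 7.52 in EtOH and at 6.27, 6.22 and 6.13 in 4OHT, and fell by 1.2 ± 0.11 (limma adjusted p = 4.44e-05). Gdf10, a secreted factor of the TGF-beta family, lay at 9.76, 9.78 and 9.78 in EtOH and at 9.02, 9.09 and 9.02 in 4OHT. Its arrays differed within a group by less than 0.1 unit, and it fell by 0.73 ± 0.07 (limma adjusted p = 5.07e-05). Id2, a target of BMP signals, fell by 0.47 ± 0.09. These were the 2 falls of that list, where 1 gene rose without EtOH_Rosi 1 and 4 fell with array weights. The Wnt count was 2 with array weights. It was 0 among genes at or above the 50th percentile of level, a filter that left Sfrp4 out. Sfrp4 kept its call without each single array.

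Of the matrix, Fbn2, a fibrillin, lay at 9.20, 9.18 and 9.25 in EtOH and at 8.16, 8.01 and 8.21 in 4OHT, and fell by 1.08 ± 0.19 (limma adjusted p = 0.00537). Mmp12, the macrophage elastase, lay at 8.33, 8.42 and 8.37 in EtOH and at 7.26, 7.41 and 7.10 in 4OHT, and fell by 1.12 ± 0.11 (limma adjusted p = 8.68e-05). Mmp9, a gelatinase, fell by 0.68 ± 0.13. Fibin and the collagen hydroxylase gene P4ha3 were lower by 1.05 ± 0.25 and 0.92 ± 0.20 and passed, but both calls were lost without any 1 of the 6 arrays compared (limma adjusted p up to 0.118 and 0.0903).

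Some of the falls are genes of macrophages. Marco, a scavenger receptor, lay at 8.33, 8.0 and 8.10 in EtOH and at 7.21, 7.04 and 7.12 in 4OHT, and fell by 1.02 ± 0.10 (limma adjusted p = 7.62e-05). Clec4e, a receptor for microbial glycolipids, fell by 1.00 ± 0.12 (limma adjusted p = 0.000261). Of 18 macrophage and leukocyte markers 2 fell, Itgam (-0.63 ± 0.12) and Lyz2 (-0.24 ± 0.06), and 2 rose, Fcgr1 (0.54 ± 0.12) and Mpeg1 (0.52 ± 0.13), with a list median of -0.18. These 4 calls depended on single arrays. The falls numbered 0 when 4OHT 2 or 4OHT 3 was omitted, 1 when any EtOH array was, 4 when 4OHT_Rosi 3 was, and 4 with array weights. The rises numbered 0 when EtOH 2, EtOH 3, 4OHT 1 or 4OHT 2 was omitted and 1 when EtOH 1, 4OHT 3 or 4OHT_Rosi 2 was. The mean level of the 18 markers was 8.64, 8.42 and 8.40 in EtOH and 8.44, 8.37 and 8.27 in 4OHT. Of the 14 endothelial markers 0 passed by limma, with a median of -0.14, and of the 12 lymphocyte markers 0 passed, with a median of -0.02 and a median level of 4.89. In both lists 0 members passed without each single array too. The part of these cells in the interferon and chemokine rises was not tested.

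Of 16 smooth muscle and pericyte markers 3 rose and 1 fell. Myh11, smooth muscle myosin, lay at 8.32, 8.53 and 8.56 in EtOH and at 8.89, 8.81 and 9.01 in 4OHT, and rose by 0.43 ± 0.08 (limma adjusted p = 0.0066). Ldb3 rose by 0.38 ± 0.06 and Des by 0.40 ± 0.08, the latter call being lost without EtOH 1, 4OHT 1 or 4OHT 2. The fall, in Abcc9 (-0.38 ± 0.10), was lost without any 1 of the 6 arrays compared or without any EtOH_Rosi array or 4OHT_Rosi 2.

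Markers of adipose progenitors split. Pi16, which marks early progenitors, lay at 7.68, 8.04 and 7.83 in EtOH and at 8.85, 8.98 and 8.77 in 4OHT, and rose by 1.02 ± 0.13 (limma adjusted p = 0.000564). Sema3c, a secreted guidance factor, lay at 8.57, 8.34 and 8.16 in EtOH and at 9.09, 9.06 and 9.02 in 4OHT, and rose by 0.70 ± 0.09 (limma adjusted p = 0.000457). Zfp423, a factor of fat cell commitment, rose by 0.38 ± 0.07. Pdgfra, the growth factor receptor used to define progenitors, lay at 11.97, 12.08 and 11.98 in EtOH and at 11.39, 11.48 and 11.57 in 4OHT, and fell by 0.53 ± 0.09 (limma adjusted p = 0.00489). In all 3 of 23 markers rose and 1 fell, with a median of 0.00. All treated arrays lay above all ethanol arrays in 5 markers and below them in 10, beside 11.2% and 11.7% over all genes. The falls numbered 2 without 4OHT_Rosi 3 and 2 to 5 under 5 of the alternative fits and filters.

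Of 34 general adipocyte genes 3 rose and 2 fell, with a median of 0.04, and in 11 all treated arrays lay above all ethanol arrays, beside 11.2% over all genes. The count of rises was 8 with an intensity trend and robust eBayes, 9 with array weights and 7 among genes at or above the 50th percentile of level. Cidec, which enlarges lipid droplets, lay at 11.08, 10.99 and 11.07 in EtOH and at 10.76, 10.53 and 10.68 in 4OHT, and fell by 0.39 ± 0.07 (limma adjusted p = 0.00804). The rises in Pparg (0.24), Cebpa (0.34) and Plin4 (0.33) were all lost without EtOH 2, EtOH 3, 4OHT 1 or 4OHT 2, and the count of falls was 1 without EtOH 1, EtOH 3, 4OHT 2 or 4OHT 3. Of 14 white-fat-selective genes 3 rose and 1 fell. Npr3, the clearance receptor for natriuretic peptides, lay at 10.28, 10.16 and 10.15 in EtOH and between 10.89 and 11 in 4OHT, and rose by 0.75 ± 0.07 (limma adjusted p = 3.85e-05). Nnat rose by 0.73 ± 0.10 and Agt, angiotensinogen, by 0.48 ± 0.09. Mest, an imprinted gene linked to fat expansion, lay at 9.73, 9.76 and 9.83 in EtOH and at 9.18, 9.28 and 9.08 in 4OHT, and fell by 0.59 ± 0.07 (limma adjusted p = 0.00024). Of 32 brown and beige thermogenic genes 2 rose and 0 fell. Those were Ppara and Pdk4, each by 0.40. Omitting EtOH 1 gave 4 calls, omitting EtOH 2, EtOH 3 or 4OHT 1 gave 0, and omitting 4OHT 2 gave 1, while array weights gave 7.

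Of 22 glycolysis and hypoxia genes 6 fell and 0 rose, with a median of -0.18. Slc2a1, the glucose transporter, lay at 11.67, 11.63 and 11.58 in EtOH and at 11.24, 11.20 and 11.19 in 4OHT, and fell by 0.42 ± 0.05 (limma adjusted p = 0.000617). Slc16a3, the lactate exporter, fell by 0.54 ± 0.07 (limma adjusted p = 0.000449). The count was 2 without 4OHT 2 and 3 without 4OHT 3, and 10 with an intensity trend or with array weights.

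Among 18 genes sensitive to estrogen receptor ligands 1 rose and 2 fell. Pgr, the progesterone receptor and a known estrogen target, lay at 6.54, 6.41 and 6.31 in EtOH and at 5.50, 5.97 and 5.81 in 4OHT, and fell by 0.66 ± 0.10 (limma adjusted p = 0.00226). Greb1 was lower by 0.30 ± 0.07 and Esr1 higher by 0.25 ± 0.05, and both passed. Greb1's call was lost without EtOH 1, EtOH 2, 4OHT 1 or 4OHT 2, and Esr1's without EtOH 2, EtOH 3, 4OHT 1 or 4OHT 2.

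The same treatment was compared in the medium with rosiglitazone, on 6 other arrays. There 1032 genes rose (4.65%) and 750 fell (3.38%). The rises were shared more than the falls were: 257 genes rose in both media, which is 54.4% of the 472 and 24.9% of the 1032, and 98 fell in both, 24.7% of the 396 and 13.1% of the 750. This difference in sharing was not tested. Of the rises of at least 2-fold, 48 of 54 also rose with rosiglitazone, and of such falls 4 of 16 also fell. The promoter core was present in 39 of 197 rises called in both media (19.8%) and in 5 of 170 rises called without rosiglitazone only (2.94%).

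The difference between both effects was tested directly and passed for 223 genes (1.01%), of which 19 were among the rises and 54 among the falls. The count of 223 lay between 51 and 113 without any 1 of the arrays EtOH 1 to 3, 4OHT 1 to 3, EtOH_Rosi 2, EtOH_Rosi 3 and 4OHT_Rosi 3. Irf7 rose by 2.23 with rosiglitazone against 2.31 without, and in the GTPase list 15 members rose there against 16, with 0 differences called by limma in that list at the adjusted threshold. Mitosis genes differed: 3 of the 39 fell with rosiglitazone, with a median of -0.06, and the difference passed for 10. Plk1 differed by -0.05 with rosiglitazone and by -0.78 without (difference -0.73, limma adjusted p = 0.0205). Top2a differed by -0.03 and -0.61 (difference -0.57, limma adjusted p = 0.0249).

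Ngfr differed by -0.51 with rosiglitazone against -2.29 without (difference -1.77 ± 0.23, limma adjusted p = 0.00726). Sfrp4 differed by -0.14 there, Mmp12 by -0.10, Gucy1a1 by -0.14 and Gdf10 by -0.06, and the difference between media passed for all 4 (limma adjusted p from 0.00726 to 0.0114). Orm3 differed by 0.25 with rosiglitazone against 1.74 without (difference 1.49, limma adjusted p = 0.0125). Reg1 differed by -0.27 against -2.31, but the difference missed the threshold (-2.03, limma adjusted p = 0.0517). Kng2, Marco and Clec4e fell in both media, by 1.17, 0.75 and 0.97 with rosiglitazone. In the opposite way, Ucp1 and Cidea, brown fat genes, fell by 1.58 and 1.56 with rosiglitazone and differed by 0.08 and 0.07 without it (difference 1.65 and 1.63, limma adjusted p = 0.00591 and 0.00726). Without rosiglitazone both were below the median level of all genes, Cidea at 4.71 to 5.07 in EtOH, near the background medians of 4.35 to 4.57.

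**Figure D5:**
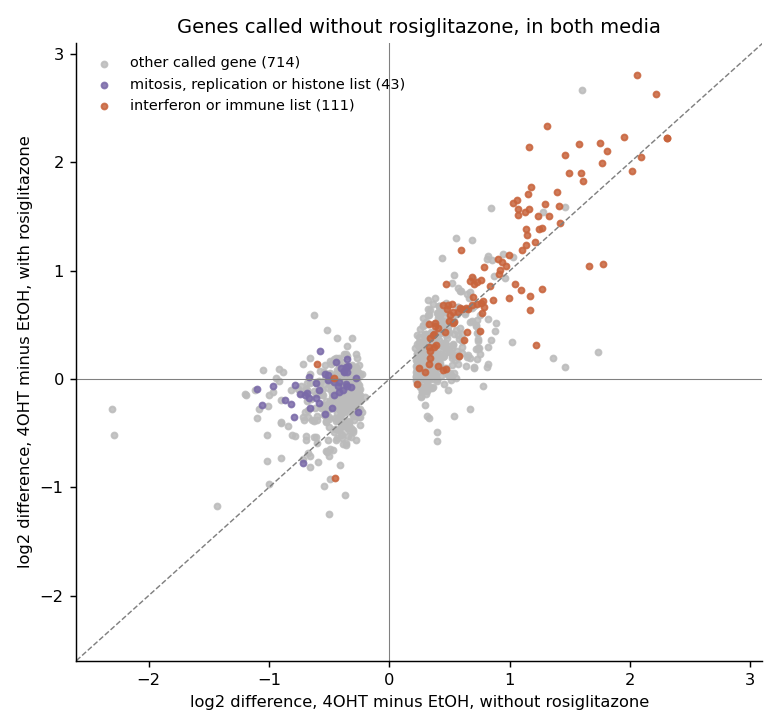
Log2 difference (4OHT minus EtOH) of the 868 genes called without rosiglitazone, on the horizontal axis without and on the vertical axis with rosiglitazone, with the dashed line marking equal differences. Of the 111 genes of the interferon and immune lists 108 lie to the right of 0, most of them also above 0. The 43 genes of the mitosis, replication and histone lists lie to the left, most of them near 0 on the vertical axis. The histone gene H2bc12 lies at -0.77 there. Among all measured members of these lists, 3 mitosis and 2 histone genes fell with rosiglitazone, and 2 replication genes rose.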

How the data were processed

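Total RNA of 12 samples was hybridised to Affymetrix arrays, 1 per sample, and the authors deposited 1 table of log2 values per probe set. Affymetrix Expression Console is named per the submitters' processing notes, while no label or header names the summary method or the normalization. The deposited log2 values were used as they stand. Of 41345 probe sets, 190 controls, 15820 with no gene and 1814 with several genes in the platform annotation were left out. Symbols were updated through RefSeq for 23328 of 23521 probe sets, and 193 kept the platform's name. The 4 groups were fitted together in limma 3.58.1 (R 4.3.3) with empirical Bayes and Benjamini-Hochberg adjustment over 22180 genes, with 8 residual degrees of freedom. The procedure was tested on simulated data. The members and lists were chosen with earlier results of these data known. Named genes are Prdm16, a fixed panel, the 15 largest rises and falls among brighter genes and 5 among dim ones, the 6 smallest p-values per list, all called interferon, mitosis and replication genes, the 6 largest differences between media each way, and gene runs. Other list members were named after their values were seen. Replicate numbers were not taken as pairs, since the deviations of same-numbered arrays correlated by 0.08, 0.02 and 0.00. Alternatives covered the replicate block, the groups fitted, variance and weight settings, normalization, dim-gene filters, probe set choice and leaving out each array.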

Additional observations from a re-analysis of the deposited data

Results flagged for a closer look

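The effect of 4-hydroxytamoxifen differed between the media, by limma's interaction test at an adjusted p below 0.05, for 39 of the genes named by the rule. Values are the log2 effect without rosiglitazone minus the effect with it.

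The difference was negative for 30 of them. Those genes were Bpifa6 (-2.66), Ngfr (-1.77), Mtarc1 (-1.23), Aplnr (-1.22), Shisa6 (-1.11), Sfrp4 (-1.07), Mmp12 (-1.02), H1f5 (-1.0), Dio3 (-0.95), Kif23 (-0.90), Gucy1a1 (-0.86), Omd (-0.84), Ccl6 (-0.77), Cntn1 (-0.76) and Ccl3 (-0.74). The remaining negative differences were smaller in size, in Plk1 (-0.73), Pgr (-0.71), Birc5 (-0.69), Gdf10 (-0.67), Depdc1a (-0.61), Ncaph (-0.60), Nuf2 (-0.60), Top2a (-0.57), Mest (-0.57), Ube2c (-0.55), Hmmr (-0.53), Mcm3 (-0.50), Cenpe (-0.48), Gfra1 (-0.46) and Pcna (-0.42). Of these, Kif23, Plk1, Birc5, Ncaph, Nuf2, Top2a, Ube2c, Hmmr and Cenpe belong to the mitosis list. The other member of the 10 in that list, Smc2, is not among the genes named by the rule.

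The difference was positive for 9 genes, namely Npr3 (0.46), Fmo2 (0.49), Ppara (0.88), Timp4 (1.42), Itpka (1.46), Orm3 (1.49), Itgad (1.55), Cidea (1.63) and Ucp1 (1.65). Bpifa6 rose by 2.85 with rosiglitazone and differed by 0.19 without it. Itgad, an integrin chain of leukocytes, fell by 1.76 with rosiglitazone and differed by -0.21 without it.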

How the results depend on the processing

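None of the 247 called differences of named genes changed sign under the alternatives run, whereas 7 of the 137 named genes that were not called did. The counts without rosiglitazone were 472 higher and 396 lower. With limma's array weights they were 1167 and 1075, and with a 2-fold minimum 54 and 16. Fitting only the 2 groups compared gave 620 lower. The 223 genes whose effects differed between media became 396 with array weights, 393 with an intensity trend and robust eBayes, 381 among genes at or above the 50th percentile and 24 with a 2-fold minimum. Leaving out each array in turn gave 276 to 522 higher, 189 to 537 lower and 51 to 331 differences between media. The replicate block gave 387 higher, 296 lower and 116 differences, and the replicate numbers were not treated as pairs: arrays with number 1 correlated best with each other, and those with numbers 2 and 3 did not. Of the called named genes, 160 kept the call without each single array and 87 lost it at least once. The number of arrays limits what could be detected.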

Other observations

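Of 17 cholesterol synthesis genes 2 rose and 0 fell. Hsd17b7 lay at 10.08, 9.97 and 9.89 in EtOH and at 10.40, 10.34 and 10.41 in 4OHT and rose by 0.40 ± 0.07 (limma adjusted p = 0.0036). Cyp51 rose by 0.40 ± 0.10, a call lost without some arrays, so that 1 rise was left when EtOH 2, EtOH 3 or any 4OHT array was omitted. The rises numbered 1 with the replicate block, 5 with an intensity trend and 6 with array weights. Of 19 antioxidant and metallothionein genes 1 rose, the glutathione transferase gene Gsta3 (0.63 ± 0.10, limma adjusted p = 0.00252), and 1 fell, the peroxidase gene Gpx3 (-0.40 ± 0.06, limma adjusted p = 0.00106). Of 21 genes of the unfolded protein and integrated stress response 3 fell, Trib3, Atf4 and Herpud1, by 0.28 to 0.38, with 0 calls left when EtOH 3, 4OHT 1 or 4OHT 2 was omitted and 1 when EtOH 2 or 4OHT 3 was. In 34 extracellular matrix genes the median was -0.11, and in 16 all treated arrays lay below all ethanol arrays, beside 11.7% over all genes. Of these 34 genes 3 fell, Lama2, Col6a2 and Col6a1, by 0.25 to 0.39, with 0 calls left when 4OHT 2 was omitted, 1 when EtOH 2, EtOH 3, 4OHT 1 or 4OHT 3 was, and 5 when 4OHT_Rosi 3 was. The falls numbered 11 when only the 2 groups compared were fitted, 9 with array weights and 6 with an intensity trend.

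Probe sets outside the gene table were fitted together with the rest. Of the 15820 with no gene in the annotation 41 were called higher (0.259%) and 39 lower (0.247%), and of the 1814 with several genes 35 were called higher (1.93%) and 30 lower (1.65%). In the same fit, of the 23521 probe sets with 1 gene 318 were called higher (1.35%) and 208 lower (0.884%). The largest rise among those with no gene was 2.26.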
